A study of Mus musculus with 12 samples.

Results

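The 10 genes studied here are known for their expression at the 2-cell stage of the mouse embryo, and were followed through 4 maps of contact between chromatin and the nuclear lamina. They are 10 of the 20144 protein-coding genes that lie within the mapped part of the autosomes, and they were chosen by name: Usp17la, Usp17lc, Usp17ld, Tcstv1, Tcstv3, Zfp352, Tdpoz3, Tdpoz4, Arg2 and Eif1a. Taking members with midpoints within 1 Mb of each other as a single locus, they occupy 7 loci on chromosomes 3, 4, 7, 12, 13 and 18. Members of a locus share their surroundings and are not independent of each other.

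The maps are lists of lamina-associated domains (LADs), made by DamID with a fusion of the adenine methyltransferase Dam to lamin B1, which marks DNA close to the lamina. The embryos were crosses labelled (C57BL/6J xCBA) x DBA/2J, and all groups received an siRNA as zygotes (20 µM, 17 to 18 h after hCG), either a control (siControl) or one against Rif1 (siRif1). All groups were also injected with mRNA-encoded tools at the late 2-cell stage (46 to 48 h): the degron-tagged Dam-LaminB1 (20 ng/µL), Tir1 (250 ng/µL), which lets auxin (500 µM) remove the fusion, and membrane eGFP (100 ng/µL). Auxin was taken away at 54 h for the 4-cell groups, collected at 60 to 62 h, and at 66 h for the 8-cell groups, collected at 72 to 74 h. Each siRNA was thus followed at both stages, which gives 4 groups, each with 3 replicates of 16 to 24 pooled blastomeres (4 to 6 embryos at the 4-cell stage, 2 to 3 at the 8-cell stage). Each group came as 1 list over its replicates, so every value below is a single value per group without replicate error or known depth, and no test between groups was possible. The fusion was expressed from injected material rather than from its own gene. The lists hold no RNA, so cell type markers could not be checked, and neither the Rif1 knockdown nor the expression of the genes could be checked in them.

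LADs are large, mostly gene-poor and transcriptionally quiet stretches of chromatin that lie at the nuclear rim and tend to replicate late. The genes of the 2-cell stage are switched on with zygotic genome activation, several of them together with MERVL retroelements, and are largely silent again in the following cleavage stages. Many of them sit in tandem families: Usp17l genes encode deubiquitinating enzymes, Tdpoz genes encode proteins with a TRAF (MATH) and a POZ domain, and Tcstv genes belong to the 2-cell-stage variable group. Zfp352 encodes a zinc finger protein, Arg2 the mitochondrial arginase, and Eif1a a translation initiation factor. Rif1 is a chromatin protein with a role in replication timing, and the study asked how its depletion bears on lamina contacts as the embryo goes from 4 to 8 cells.

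The midpoint of a gene decided whether it was counted as LAD. Usp17la was in a LAD in all 4 lists, and each of the other 9 members changed state between lists. Thus 1 of 10 members kept 1 state in all 4 lists, against 67.1% of protein-coding genes. With LADs under 300 kb left out the count was 3 (against 67.8%), and with every LAD trimmed by 1 bin of 100 kb at each border it was 5 (against 70.8%). In siControl 4-cell embryos 3 of the 10 members were in LADs (Usp17la, Arg2, Eif1a), against 24.7% of protein-coding genes. In siRif1 4-cell embryos the count was 2 (Usp17la, Eif1a), against 24.0%. In siControl 8-cell embryos it was 5 (Usp17la, Usp17lc, Usp17ld, Tcstv3, Zfp352), against 26.3%, and in siRif1 8-cell embryos it was also 5 (Usp17la, Tcstv1, Zfp352, Tdpoz3, Tdpoz4), against 24.2%. The 8-cell counts are equal, but the members common to both are only Usp17la and Zfp352. By locus the counts were 3, 2, 4 and 4 of 7 in the same order.

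**Figure D1:**
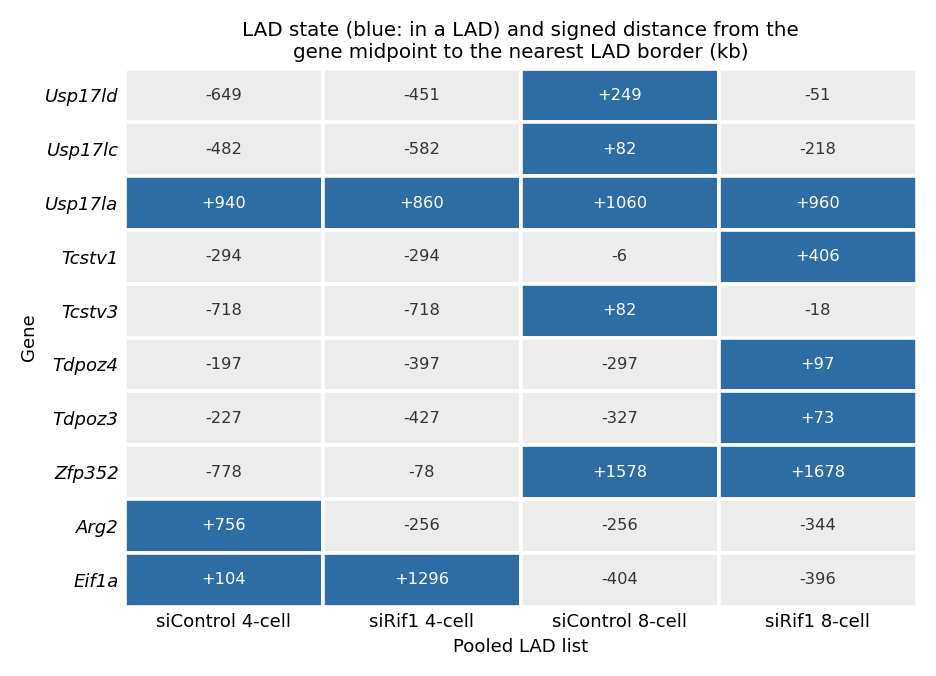
LAD state of the 10 genes (rows) in the 4 pooled lists (columns); blue cells are genes whose midpoint lies in a LAD, grey cells genes outside, and the number in each cell is the distance in kb from the midpoint to the nearest LAD border, above 0 inside and below 0 outside. Usp17la is blue in every list, and the Tcstv and Tdpoz genes are blue only at the 8-cell stage.

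Set against siControl at the same stage, 1 member was LAD in siControl 4-cell embryos and not with siRif1 (Arg2; 8.08% of protein-coding genes went this way) and 0 went the other way (7.37%). At the 8-cell stage 3 members at 2 loci were LAD in siControl alone (Usp17lc, Usp17ld, Tcstv3; 9.37%) and 3 members at 2 loci in siRif1 alone (Tcstv1, Tdpoz3, Tdpoz4; 7.33%). From the 4-cell to the 8-cell stage, 4 members entered LADs in siControl embryos (Usp17lc, Usp17ld, Tcstv3, Zfp352; 11.2%) and 2 left them (Arg2, Eif1a; 9.59%). In siRif1 embryos 4 entered (Tcstv1, Zfp352, Tdpoz3, Tdpoz4; 8.83%) and 1 left (Eif1a; 8.58%). These comparisons share lists with each other, so a member counted in one can be counted in another through the same value. With so few members and loci, none of the counts was tested.

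The largest family among the members is that of the Usp17l deubiquitinases on chromosome 7. On GRCm38, to which all positions refer, Usp17ld (103250086 to 103252505) and Usp17lc (103416696 to 103419174) have midpoints 166.6 kb apart, and Usp17la (104857016 to 104862667) lies 1442 kb above Usp17lc and forms a locus of its own. The stretches before the annotated starts of these 3 copies are shown because the genes are alike in sequence but not in LAD state. They are the 250 bases upstream of the start, 5′ to 3′, from RefSeq on GRCm38.p6: Usp17lc at chr7:103416446-103416695 (plus strand), Usp17ld at chr7:103252506-103252755 (minus strand) and Usp17la at chr7:104856766-104857015 (plus strand). Capitals mark the longest run, of 44 bases, that all 3 hold exactly.
Usp17lc: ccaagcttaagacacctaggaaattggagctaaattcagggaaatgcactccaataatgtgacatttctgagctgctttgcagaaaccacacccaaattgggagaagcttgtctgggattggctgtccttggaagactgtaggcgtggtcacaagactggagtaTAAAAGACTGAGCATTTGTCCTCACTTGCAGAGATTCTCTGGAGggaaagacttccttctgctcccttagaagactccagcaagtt
Usp17ld: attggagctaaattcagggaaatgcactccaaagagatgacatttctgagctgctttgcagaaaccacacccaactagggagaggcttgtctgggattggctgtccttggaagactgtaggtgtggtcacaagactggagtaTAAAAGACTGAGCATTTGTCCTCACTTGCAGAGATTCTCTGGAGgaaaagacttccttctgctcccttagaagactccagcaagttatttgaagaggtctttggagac
Usp17la: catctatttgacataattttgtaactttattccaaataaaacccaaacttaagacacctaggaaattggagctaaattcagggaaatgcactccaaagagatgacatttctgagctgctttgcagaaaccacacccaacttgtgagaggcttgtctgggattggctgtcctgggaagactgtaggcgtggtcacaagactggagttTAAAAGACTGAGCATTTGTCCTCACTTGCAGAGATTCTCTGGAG

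The common run begins 86 bases before the annotated start in Usp17lc, 108 in Usp17ld and 44 in Usp17la, so the annotated starts are not at matching positions. In local alignments Usp17lc and Usp17ld were identical at 219 of 228 columns (96.1%), Usp17lc and Usp17la at 198 of 208 (95.2%), and Usp17ld and Usp17la at 181 of 186 (97.3%). Usp17lb, another copy beside Usp17la, was less alike, with 85.5% identity to Usp17lc, 91.2% to Usp17ld and 87.6% to Usp17la. The letters TATAAA, read in the direction of the gene, occur just ahead of the run in Usp17lc and Usp17ld, overlapping its first bases. They are absent from the stretch of Usp17la. Usp17lb, in a LAD in every list like Usp17la, does hold TATAAA, 31 bases before its annotated start. Among these copies TATAAA thus did not go with LAD state, and a link between them was not tested. TATAAA occurs as written in 7.59% of 32851 RefSeq upstream stretches of the same length (12.4% when either strand is read). GATC, the site that Dam methylates and which reads the same on both strands, is in none of the 3 stretches, against 41.9% of all upstream stretches. How reads that match several copies were placed is not given in the sources used here, and the part this plays in the LAD states was not tested.

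Usp17ld was outside LADs by 648.7 kb in siControl 4-cell, by 451.3 kb in siRif1 4-cell and by 51.3 kb in siRif1 8-cell embryos. In siControl 8-cell embryos it lay 248.7 kb inside one. Usp17lc was outside by 482 kb in siControl 4-cell, 582 kb in siRif1 4-cell and 218 kb in siRif1 8-cell embryos, and 82.1 kb inside in siControl 8-cell embryos. Both genes were thus in a LAD in the siControl 8-cell list alone, a pattern held by 3.76% of protein-coding genes. The value of Usp17lc in siControl 8-cell and that of Usp17ld in siRif1 8-cell embryos are below the 100-kb grid: with LADs trimmed by 1 bin Usp17lc was outside in siControl 8-cell embryos, and with LADs extended by 1 bin Usp17ld was inside in siRif1 8-cell embryos.

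The difference at the 8-cell stage comes down to the upper border of a single domain. In siControl 8-cell embryos this LAD ran from 102500001 to 103500000 (1 Mb) and took in both genes. In siRif1 8-cell embryos it ran from 102600001 to 103200000 (0.6 Mb) and ended before Usp17ld. The gap to the next LAD was 0.3 Mb in siControl and 0.7 Mb in siRif1 embryos, and both genes fell in the siRif1 gap. At the 4-cell stage siControl embryos had no LAD below the genes within the 5-Mb window, and siRif1 embryos had one of 0.2 Mb (102600001 to 102800000). The nearest protein-coding genes on both sides, the olfactory receptor genes Olfr594 and Olfr605, had the same 4 states as the Usp17l pair.

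Usp17la lay deep in a LAD throughout, 940.2 kb from the border in siControl 4-cell, 859.8 kb in siRif1 4-cell, 1059.8 kb in siControl 8-cell and 959.8 kb in siRif1 8-cell embryos. Its LAD was 1.9 Mb long in both 4-cell lists (103900001 to 105800000 and 104000001 to 105900000). It was 5.2 Mb long in siControl 8-cell (103800001 to 109000000) and 5.3 Mb in siRif1 8-cell embryos (103900001 to 109200000). The 4-cell gaps above it, of 0.9 Mb in siControl and 0.3 Mb in siRif1, were part of the LAD in both 8-cell lists. The family members next to it, Usp17lb and Usp17le, were likewise LAD in all 4 lists, as were 9.66% of protein-coding genes. Both Usp17l loci lie among olfactory receptor genes, a family expressed in the nose: 126 of 202 protein-coding genes in the 5 Mb around Usp17lc and 151 of 202 around Usp17la carry Olfr symbols.

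Tcstv1 (119893387 to 119894785) and Tcstv3 (120316862 to 120318261) are at the upper end of chromosome 13, and Tcstv3 is the last protein-coding gene annotated there. In both 4-cell lists the genes were outside LADs by the same distances, 294 kb for Tcstv1 and 718 kb for Tcstv3, and the only LAD within 2.5 Mb of the locus was a single 100-kb bin (119500001 to 119600000). At the 8-cell stage almost all of this end was LAD. In siControl 8-cell embryos a LAD of 3.3 Mb (116300001 to 119600000) was followed by a gap of 0.3 Mb and by a terminal LAD of 0.5 Mb (119900001 to 120400000). In siRif1 8-cell embryos 1 LAD of 2.4 Mb (117900001 to 120300000) covered the gap and stopped a bin earlier.

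The pair had opposite states at the 8-cell stage. Tcstv1 was outside the siControl 8-cell LAD by 5.91 kb and inside the siRif1 8-cell LAD by 405.9 kb. Tcstv3 was 82.4 kb inside in siControl and 17.6 kb outside in siRif1. Of these values, those of Tcstv1 in siControl and of Tcstv3 in both 8-cell lists are smaller than the 100-kb grid on which LADs were given. The siControl 8-cell border nearest Tcstv3 is also where the lists end on this chromosome. Between them lie 2 related genes, AF067061 and BC147527. AF067061 was LAD in both 8-cell lists, and BC147527 was LAD in siControl 8-cell embryos and outside by 4.54 kb in siRif1 8-cell embryos. In the 2.79 Mb of the locus window that the lists reach, 2.1 Mb were LAD in both 8-cell lists, 0.394 Mb in siControl alone and 0.3 Mb in siRif1 alone.

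Tdpoz4 (93796398 to 93797510) and Tdpoz3 (93826020 to 93827117) are neighbours on chromosome 3, 29.6 kb apart. Tdpoz4 was outside LADs by 197 kb in siControl 4-cell, 397 kb in siRif1 4-cell and 297 kb in siControl 8-cell embryos, and 97.0 kb inside in siRif1 8-cell embryos. Tdpoz3 followed at 226.6, 426.6 and 326.6 kb outside and 73.4 kb inside in the same order. LAD in siRif1 8-cell alone was the state of 3.86% of protein-coding genes. The LAD that held both genes was only 0.2 Mb long (93700001 to 93900000), one of 64 of that length among the 738 in that list. With LADs under 300 kb left out, neither gene was in a LAD in any list.

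The other Tdpoz genes of the region did not share this state. Tdpoz1 and Tdpoz2 lay just below the small LAD, outside it by 27.2 and 47.9 kb, and Tdpoz5 lay 60.8 kb above it. With Tdpoz7 and Tdpoz9, these genes were outside LADs in every list. The distances of Tdpoz1, Tdpoz2 and Tdpoz5 to the small LAD are below the 100-kb grid. So are those of the members inside it, 97.0 kb for Tdpoz4 and 73.4 kb for Tdpoz3. The contrast of the members with Tdpoz1, Tdpoz2 and Tdpoz5 thus rests on values below the grid. Tdpoz8, further down the chromosome, was LAD in siRif1 4-cell and siControl 8-cell embryos. LADs made up 4.00% of the 5 Mb around both members in siControl 4-cell embryos, 28.0% in siRif1 4-cell embryos, 29.5 to 30.1% in siControl 8-cell and 21.5 to 22.1% in siRif1 8-cell embryos. The medians of all protein-coding genes, given with the other shares, were higher in siControl 4-cell embryos, the same in siRif1 4-cell embryos and somewhat higher at the 8-cell stage. The window was gene-rich, with 140 protein-coding genes against a median of 64.5 around protein-coding genes.

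**Figure D2:**
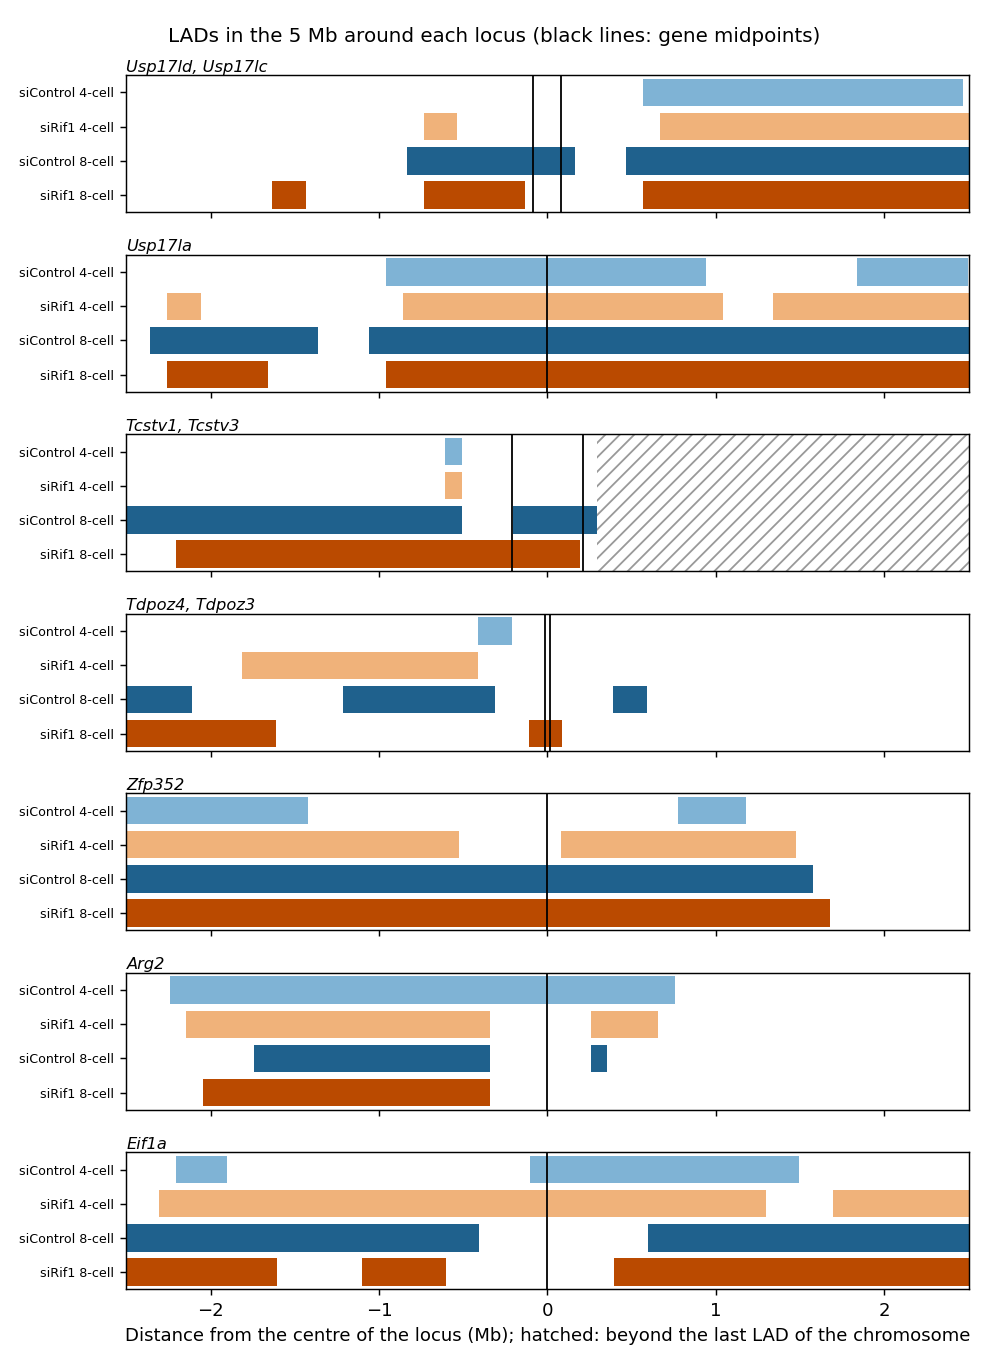
LADs of the 4 pooled lists (rows of each panel) in the 5 Mb around each of the 7 loci; the horizontal axis is the distance from the centre of the locus in Mb, coloured bars are LADs and black lines are the midpoints of the members. At the Tcstv locus the hatched part lies beyond the last LAD of the chromosome, and at the Tdpoz locus a bar of 0.2 Mb in the siRif1 8-cell row holds both genes.

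Zfp352 (chromosome 4, 90218820 to 90225687) changed state with stage in both treatments. It was 777.7 kb outside LADs in siControl 4-cell and 77.7 kb outside in siRif1 4-cell embryos, then 1578 kb inside in siControl 8-cell and 1678 kb inside in siRif1 8-cell embryos. The siRif1 4-cell value is below the 100-kb grid. With LADs extended by 1 bin the gene was 22.3 kb inside in siRif1 4-cell embryos, and its state then did not change between the siRif1 lists. LAD in both 8-cell lists and in neither 4-cell list was the state of 2.87% of protein-coding genes. In siControl 4-cell embryos the gene lay in a gap of 2.2 Mb between LADs (88800001 to 91000000), and in siRif1 4-cell embryos in one of 0.6 Mb (89700001 to 90300000). Both 8-cell lists had a single LAD of 4.9 Mb there, at 86900001 to 91800000 in siControl and 87000001 to 91900000 in siRif1 embryos. The neighbour below, Dmrta1, was LAD in every list but siControl 4-cell, and the one above, Elavl2, an RNA-binding protein gene, was LAD in all 4.

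The stretch before the annotated start of Zfp352 is shown because it differs in kind from those of the Usp17l genes. It is chr4:90218570-90218819 on GRCm38.p6 (plus strand, RefSeq, 250 bases, 5′ to 3′). Capitals mark a 10-base unit that occurs 9 times, the first 240 bases before the start.
Zfp352: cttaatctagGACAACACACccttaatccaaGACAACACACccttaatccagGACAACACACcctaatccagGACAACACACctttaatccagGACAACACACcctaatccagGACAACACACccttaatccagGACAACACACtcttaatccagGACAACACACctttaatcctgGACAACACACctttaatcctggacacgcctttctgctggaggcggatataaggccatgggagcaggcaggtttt

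This array holds no GATC and no TATAAA as written. The upstream stretch of Tdpoz4, the only other member with one in the table, holds 1 GATC and no TATAAA as written. Upstream stretches were matched for 5 of the 10 members; Tcstv1, Tcstv3, Tdpoz3, Arg2 and Eif1a were not matched.

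Arg2 (chromosome 12, 79130788 to 79156301) went the other way with stage and was the member whose state differed at the 4-cell stage. It was 756.5 kb inside a LAD in siControl 4-cell embryos and outside by 256.5 kb in siRif1 4-cell, 256.5 kb in siControl 8-cell and 343.5 kb in siRif1 8-cell embryos. This pattern was held by 4.97% of protein-coding genes. The siControl 4-cell LAD spanned 3 Mb (76900001 to 79900000). In siRif1 4-cell embryos the same stretch was split into LADs of 1.8 Mb (77000001 to 78800000) and 0.4 Mb (79400001 to 79800000), with Arg2 in the 0.6-Mb gap. In siControl 8-cell embryos the gap had the same borders, and the LADs around it were 1.4 and 0.1 Mb long. In siRif1 8-cell embryos there was no LAD above the gene within the window. Pigh and Vti1b, the genes on either side, had the same 4 states as Arg2.

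Eif1a (chromosome 18, 46597704 to 46610225) was LAD at the 4-cell stage and not at the 8-cell stage in both treatments, a pattern held by 2.13% of protein-coding genes. It was 104 kb inside in siControl 4-cell and 1296 kb inside in siRif1 4-cell embryos, and outside by 404 kb in siControl 8-cell and 396 kb in siRif1 8-cell embryos. In siControl 4-cell embryos its LAD was 1.6 Mb long (46500001 to 48100000), and in siRif1 4-cell embryos 3.6 Mb (44300001 to 47900000). At the 8-cell stage the gene sat in a gap of 1 Mb in both lists, at 46200001 to 47200000 in siControl and 46000001 to 47000000 in siRif1 embryos. The genes on either side, Tmed7 and Cdo1, changed in the same way.

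The state of a gene and the LAD share of its surroundings did not always move together. Around Eif1a the share of the 5-Mb window in LADs was 38.0% in siControl 4-cell, 88.1% in siRif1 4-cell, 80.0% in siControl 8-cell and 70.0% in siRif1 8-cell embryos. From 4 to 8 cells in control embryos the window of Eif1a thus had a higher share by 42.0 percentage points while the gene itself left its LAD. This depended on the window: in 2 Mb around Eif1a the share was 55.2% in siControl 4-cell and 50.0% in siControl 8-cell embryos, and in 10 Mb it was 41.0% and 65.0%. Around Usp17la, LAD in every list, the share was 51.2%, 65.2%, 91.2% and 81.2% in that order. In 2 Mb around Usp17la the share lay between 93.0 and 100.0% in all 4 lists, so the variation was in the outer part of the window. Around Zfp352 it was 29.6%, 67.6%, 81.6% and 83.6%. Around Arg2 it was 60.0%, 44.0%, 30.0% and 34.0%, with the high value in the one list where the gene was LAD. Arg2 and the Tdpoz pair had the lowest 8-cell shares of the members. For Usp17ld it was 37.0%, 39.0%, 59.0% and 53.0%, and for Usp17lc 38.0%, 42.0%, 62.4% and 56.4%. These windows largely overlap each other and, in part, that of Usp17la. Around Tcstv1 it was 3.33% in both 4-cell lists, 90.0% in siControl 8-cell and 79.8% in siRif1 8-cell embryos. Around Tcstv3 the values were 3.87%, 3.87%, 88.4% and 92.9%, over the 2.58 Mb of its window that the lists reach (3.01 Mb for Tcstv1). Divided by the whole 5 Mb, the 8-cell shares were 54.1% and 48.0% for Tcstv1 and 45.6% and 48.0% for Tcstv3, and the 4-cell shares 2.00%. These lower values also count positions beyond the last LAD at the chromosome end, so they are not LAD shares of mapped sequence.

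**Figure D3:**
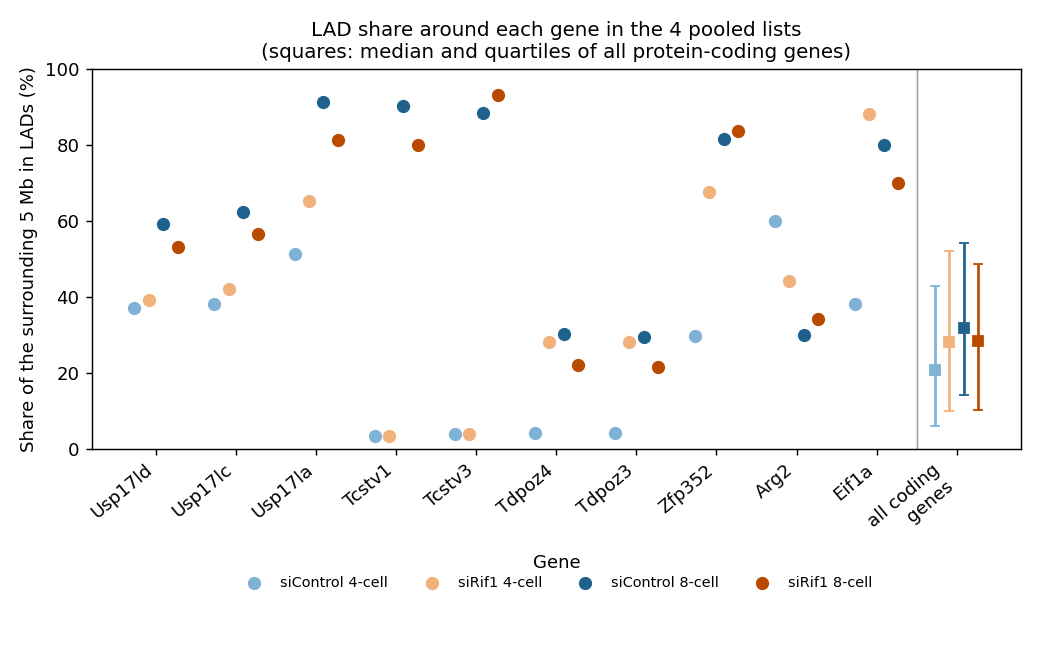
Share of the 5 Mb around each gene that lies in LADs (vertical axis, %), with 1 point per pooled list and gene; squares on the right are the median of all 20144 protein-coding genes with bars from the lower to the upper quartile. The 4-cell points of the Tcstv genes lie under 4% and their 8-cell points between 79.8 and 92.9%.

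For all protein-coding genes the median share of the window was 20.6% in siControl 4-cell, 28.0% in siRif1 4-cell, 31.7% in siControl 8-cell and 28.2% in siRif1 8-cell embryos. The medians of the 10 members were 33.3%, 40.5%, 71.2% and 63.2%. LADs covered 32.9%, 43.5%, 44.7% and 42.9% of the mapped genome in the same order, so coverage, like the member median, was lowest in siControl 4-cell embryos. From siRif1 4-cell to siRif1 8-cell embryos coverage was slightly lower and the member median higher. The part of coverage in the shares was not tested. From 4 to 8 cells in siControl embryos the share was higher around 9 of 10 members (59.2% of protein-coding genes) and lower around Arg2 (32.0%). The median difference was 33.0 percentage points for the members and 6.00 for protein-coding genes. In siRif1 embryos it was higher around 6 of 10 (46.8%) and lower around 4 (43.7%), with a median difference of 14.2 points against 0. With Rif1 siRNA at the 4-cell stage it was higher around 7 of 10 members (52.0% of protein-coding genes), lower around Arg2 (34.0%) and equal around both Tcstv genes. The largest difference among the members was 50.1 points at Eif1a, followed by 38.0 at Zfp352 and 24.0 at the Tdpoz genes. Some of these 4-cell directions depended on the window. Arg2 differed by -16.0 points in 5 Mb, -35.0 in 2 Mb and 6.0 in 10 Mb. Usp17la differed by 14.0 points in 5 Mb, -2.01 in 2 Mb and -1.60 in 10 Mb. With Rif1 siRNA at the 8-cell stage it was higher around 3 of 10 (40.6%) and lower around 7 (47.9%), with differences from -10.2 points at Tcstv1 to 4.55 at Tcstv3. Some of these 8-cell directions depended on the window too. Tcstv1 differed by 13.3 points in 2 Mb and Tcstv3 by -13.8 in 10 Mb. Arg2 differed by 4.00 points in 5 Mb, -5.00 in 2 Mb and -3.56 in 10 Mb. In 10 Mb 1 of 10 members was higher. Windows of members at 1 locus overlap, as does that of Usp17la with those of Usp17lc and Usp17ld. The counts and medians of members given here are therefore not over independent windows. The Tdpoz genes were lower in each window, by -8.00 points in 5 Mb, -33.7 and -35.2 in 2 Mb and -18.0 in 10 Mb.

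**Figure D4:**
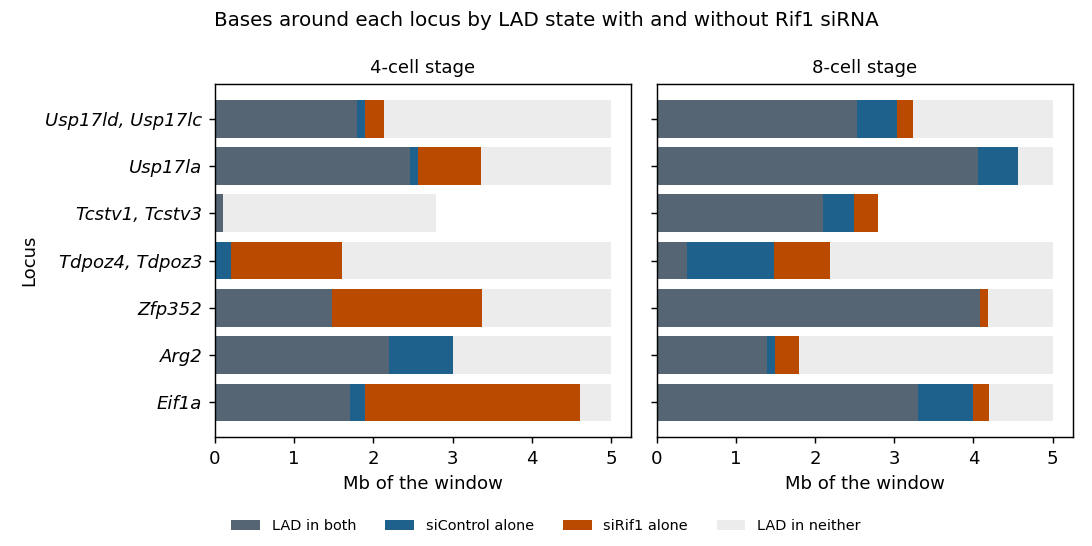
Mb of the window around each locus (vertical axis) that were LAD in both lists, in siControl alone, in siRif1 alone or in neither, at the 4-cell (left) and the 8-cell stage (right); windows are 5 Mb, or 2.79 Mb at the Tcstv locus, where the lists end. Eif1a and Zfp352 have the longest siRif1-alone parts at the 4-cell stage, 2.70 and 1.90 Mb. The windows of both Usp17l loci overlap, and their siControl-alone parts at the 8-cell stage are the same sequence.

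Counted in bases, LAD held by 1 treatment alone was mostly siRif1 LAD at the 4-cell stage. The exceptions were Arg2, around which it was siControl LAD, and the Tcstv genes. Around the Tcstv genes neither treatment alone held any. Over the mapped genome LADs covered 32.9% in siControl and 43.5% in siRif1 4-cell embryos, and 44.7% and 42.9% at the 8-cell stage. The part of this coverage in the counts was not tested. At the 4-cell stage 2.70 Mb around Eif1a, 1.90 Mb around Zfp352, 1.40 Mb around the Tdpoz genes and 0.8 Mb around Usp17la were LAD in siRif1 alone. Around Arg2 0.8 Mb were LAD in siControl alone and 0 Mb in siRif1 alone. At the 8-cell stage the part in siControl alone was 1.10 Mb around the Tdpoz genes, 0.7 Mb around Eif1a and 0.5 Mb around both Usp17l loci, and the part in siRif1 alone was 0.7, 0.2, 0.2 and 0 Mb there. The windows of both Usp17l loci overlap, and their 0.5 Mb is the same sequence, counted at each locus. Around Arg2 0.1 Mb were LAD in siControl alone and 0.3 Mb in siRif1 alone. Around Zfp352 the 8-cell lists shared 4.08 Mb and differed by 0.1 Mb. The 2 lists shared no LAD base around the Tdpoz genes at the 4-cell stage.

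Relatives of the members were placed in the same way. Of 14 paralogs found by symbol, 9, at 3 places, had 1 state in all 4 lists, against 67.1% of protein-coding genes. They are Usp17lb, Usp17le and the pseudogene Usp17le-ps inside LADs and Tdpoz1, Tdpoz2, Tdpoz5, Tdpoz7, Tdpoz9 and Eif1ad outside. Eif1ad lies below the first LAD of any list on chromosome 19, outside the mapped part. The 67.1% covers genes of the mapped part only, so Eif1ad has no counterpart in it and is unchanged by position alone. Arg1, the cytosolic arginase on another chromosome than Arg2, had the same 4 states as Arg2: it was 21.3 kb inside a LAD in siControl 4-cell embryos and outside by 78.7 kb in siRif1 4-cell, 78.7 kb in siControl 8-cell and 1079 kb in siRif1 8-cell embryos. Of these values for Arg1, only that in siRif1 8-cell embryos is not below the 100-kb grid. The pseudogene Zfp353-ps was LAD in both siRif1 lists, by 17.7 kb, and in neither siControl list, and so did not share the states of Zfp352. It was outside by 82.3 kb in siControl 4-cell and 482 kb in siControl 8-cell embryos, and all but the last value are below the grid. X-linked relatives such as Eif1ax were not analysed here.

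Of 26 other symbols on a list of 2-cell-stage and early activation genes, 25 matched genes other than the members, the last (Dub1) being an older name of Usp17la. At the 4-cell stage 5 of the 25, at 3 places, were LAD in siControl and not in siRif1 embryos (8.08% of protein-coding genes), namely Dppa2 and Dppa4, which act upstream of the 2-cell program, Pramel6, Pramel7 and Spz1. Another 3 went the other way (7.37%): Duxf3, a copy of the Dux activator, Nr5a2 and Zfp42. Their midpoints lay 31.3, 1.505 and 1.038 kb inside the siRif1 4-cell LAD, below the grid. Dppa4 and Pramel7 lay outside siRif1 4-cell LADs by 89.0 and 90.8 kb, also below the grid, and Dppa2, Pramel6 and Spz1 lay further out. At the 8-cell stage Zscan4a (annotated as a transcribed pseudogene), Zscan4b, Zscan4c and Zscan4d, of a zinc finger family known for its role at telomeres, were LAD in siControl alone (9.37%) and Spz1 in siRif1 alone (7.33%, 24.6 kb inside). The Zscan4 genes form 1 cluster. Below the grid were Zscan4a, outside by 96.7 kb in siRif1 8-cell embryos, and Zscan4c, outside by 8.15 kb in both 4-cell lists. Zscan4c and Zscan4d had the same 4 states as Usp17lc, Usp17ld and Tcstv3. Obox2, 6.30 kb inside LADs in both 8-cell lists, and Tbpl1 had those of Zfp352, and none of the 25 had those of Tdpoz3, Tdpoz4 and Tcstv1.

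Genes on other chromosomes were ranked by how closely their window shares followed those of a locus over the 4 lists, among genes with the same 4 states. Each locus was represented by its member at the lowest position. Genes with symbols of Gm or LOC followed by digits, or ending in Rik, were left out of the ranking. The closest to Usp17la were Tet2, an enzyme of DNA demethylation, and Crbn, a ubiquitin ligase receptor, with root mean square differences of 4.11 and 4.23 percentage points. Arg2 was followed by Kng2 (3.86) and Col6a4 (4.55), Usp17ld by Cst7 (5.72) and Apmap (5.74), and Tdpoz4 by Cacna1b (6.20) and Klhl24 (6.55). For Zfp352 the closest were Ifi205 (6.51) and Olfr433 (6.62), and for Eif1a Ppp2r1b (11.6) and Alg9 (12.2). Tcstv1 was followed least closely, by Col11a1 (17.0). The 2 matches of Zfp352, of Usp17ld and of Eif1a are close neighbours of each other and so represent a single place each.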

How the data were processed

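Lamina contacts of 12 samples (4 groups of 3 replicates) were available as 4 lists of LAD coordinates. The authors deposited 1 BED list per group made from all replicates, per the series' design text, and reads were handled with Trimmomatic, Bowtie2, SAMtools and Picard on mm10 (GRCm38), per the submitters' processing notes. How LADs were called, and whether Dam alone was used as a control, is not given in the sources used here. The deposited score field is 0 in every row and was not used. All borders lie on a 100-kb grid, chromosomes 1 to 19 are covered, and depth is unknown, so intervals for counting error were not computed.

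Coordinates are 1-based. Genes are those of RefSeq on GRCm38.p6, without 333 of 47042 autosomal entries that lie on scaffolds. The table gives no strand, so midpoints were used, and the planned comparison of proteins was replaced by one of upstream sequences. Distances run from the gene midpoint to the nearest border. The window share is the percent of the 5 Mb centred on the midpoint that is LAD, cut at the first and last LAD of any list. Python 3.11.15, pandas 2.3.3 and Biopython 1.88 were used, and the functions were tested on simulated lists. Background percentages are over 20144 protein-coding genes. The members and lists were chosen with earlier results of these data known. Genes named are the members, paralogs by symbol, members of the fixed 2-cell list whose state differs, the nearest protein-coding neighbours, and the 2 closest matches per locus, of which 1 is not reported here. Alternatives covered gene placement, short LADs, bridged gaps, shifted borders and window size.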

Additional observations from a re-analysis of the deposited data

How the results depend on the processing

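All 40 member states (10 genes, 4 lists) were the same by either end of the gene, by any base or 50% of it, and with gaps of up to 200 kb bridged. Leaving out LADs under 300 kb took Tdpoz4 (-1597 kb) and Tdpoz3 (-1627 kb) out of LADs in siRif1 8-cell embryos, since their LAD was shorter: 3 members were then LAD in that list in place of 5, 1 in place of 3 against siControl 8-cell and 2 in place of 4 against siRif1 4-cell. Members with 1 state in all 4 lists were then 3, in place of 1.

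Shifting all borders by 1 bin was added after the data were seen. Extending LADs brought in Zfp352 in siRif1 4-cell (22.3 kb inside), Usp17ld (48.7 kb) and Tcstv3 (82.4 kb) in siRif1 8-cell and Tcstv1 (94.1 kb) in siControl 8-cell embryos, giving 1 member LAD in siRif1 4-cell and not siControl 4-cell (0 before) and 1 in siControl 8-cell and not siRif1 8-cell (3 before). Trimming took out Usp17lc (-17.9 kb) and Tcstv3 (-17.6 kb) in siControl 8-cell and Tdpoz4 (-1697 kb) and Tdpoz3 (-1727 kb) in siRif1 8-cell embryos, which left 3 members LAD in each 8-cell list, 1 in each direction between them and 2 entering from the 4-cell stage in each treatment, with 5 members in 1 state in all 4 lists. The other 32 states were unaffected by these 2 shifts.

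Median window shares were 14.3% (siControl 4-cell) and 52.9% (siRif1 8-cell) with a 2-Mb window, 59.1% (siControl 8-cell) with a 10-Mb window, and 56.6% (siControl 8-cell) and 50.5% (siRif1 8-cell) without the cut at the chromosome end. Other medians moved by at most 10 points. The members with a lower share in siRif1 than in siControl 4-cell embryos were 2 in place of 1 with a 2-Mb window, with a 10-Mb window and without LADs under 300 kb. In 2 Mb they were Arg2 and Usp17la, and in 10 Mb Usp17la and Tcstv3, with Arg2 then higher. With a 2-Mb window 2 in place of 1 were lower in siControl 8-cell than 4-cell embryos, and with a 10-Mb window 1 in place of 3 was higher in siRif1 than in siControl 8-cell embryos. No paired analysis was possible because each list pools the replicates of its group. Leaving out a replicate was not run for the same reason.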
